A study of Homo sapiens with 27 samples.

Results

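The 10 genes described here are interferon-inducible genes of the IFI, IFITM and guanylate-binding protein families: IFI6, IFI16, IFI27, IFI44, IFI44L, IFITM1, IFITM3, GBP1, GBP2 and GBP5. They are all genes of that list whose symbol occurs in the array's probe-to-gene table, 10 of the 15240 symbols in it, and they were read by 13 of the array's 30968 probes. IFI6, GBP1 and GBP5 had 2 probes each and the other 7 genes had 1. The study measured total RNA of U937, a human monocytic line derived from a histiocytic lymphoma, on single-colour Cy5 oligonucleotide arrays, under a title on glutaminyl cyclase activity and gene expression of macrophages in inflammation. Cells of all groups were grown for 48 h. One group was untreated, another received lipopolysaccharide (LPS, the bacterial cell wall component that TLR4 recognises) at 4 µg/ml, and the last received PBD150, an inhibitor of glutaminyl cyclase, at 10 µM for 2 h before LPS at 4 µg/ml. Each group held 3 biological replicates with 3 technical arrays each, 27 arrays in all. No group received PBD150 without LPS, so the inhibitor was compared only on top of LPS. The treatment text calls the cells macrophages but names no differentiating agent, and the whole series rests on 1 cell line. The replicates are called biological, with no statement that they were separate cultures, so p-values measure the spread between these replicates only.

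Interferons act on neighbouring cells and on the cell that makes them. Genes that type I interferons induce often carry the interferon-stimulated response element (ISRE), which a complex containing IRF9 binds, and genes that interferon-gamma induces often carry the gamma-activated site (GAS). In monocytes and macrophages LPS is known to start this programme through TLR4, the adaptor TICAM1 and interferon-beta. IFI6 is a small mitochondrial and endoplasmic reticulum protein that opposes apoptosis and limits flavivirus replication, IFI27 is its relative, and IFI44 and IFI44L are paired antiviral genes. IFI16 is a nuclear and cytosolic DNA sensor with pyrin and HIN domains. IFITM1 and IFITM3 are membrane proteins that hinder fusion of virus envelopes with cell membranes. The guanylate-binding proteins GBP1, GBP2 and GBP5 are large GTPases that coat intracellular bacteria and vacuoles, and GBP5 also promotes NLRP3 inflammasome assembly.

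The promoters are shown because members of the same family moved differently in these data. Sequences matched 8 of the 10 genes in the RefSeq table of build GRCh38.p14, GBP2 and GBP5 being the exceptions. The 250 bases before each listed start were searched on both strands for the ISRE core GAAANNGAAA, read as TTTCNNTTTC on the other strand, and the GAS core TTCNNNGAA, which reads alike on both strands. The ISRE core occurred before 7 of the 8 genes, and in 9 of their 11 listed windows (81.8%), against 3.02% of the 35116 windows of that length in the table. By gene the share was 87.5%, against 66.7% of type I interferon-stimulated and 58.8% of interferon-gamma-induced genes in the lists counted further below. For the relatives and the signalling genes counted there it was 16.7% and 11.1%. The 2 windows of IFI27 overlap each other, as do those of IFI44. The GAS core occurred before 2 of the 8 genes (25.0%), IFITM1 and IFI27, against 8.09% of all genes in the table. It occurred before 25.9% of the listed type I interferon-stimulated genes and 41.2% of the interferon-gamma-induced genes. For the relatives and the signalling genes the share was 16.7% and 18.5%. IFI16 held neither core in either of its 2 windows. The 170 bases that end at the listed start are given below for the 5 genes with a single listed start, 5′ to 3′ on the gene's strand, with matches to either core in capitals.
IFI6: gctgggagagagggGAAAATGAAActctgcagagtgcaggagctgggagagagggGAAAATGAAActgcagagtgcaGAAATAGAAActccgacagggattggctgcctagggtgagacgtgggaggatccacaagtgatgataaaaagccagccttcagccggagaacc
IFITM1: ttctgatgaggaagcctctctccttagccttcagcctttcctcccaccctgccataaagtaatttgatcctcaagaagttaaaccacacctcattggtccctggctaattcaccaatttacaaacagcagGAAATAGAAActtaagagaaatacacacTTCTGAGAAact
IFI44L: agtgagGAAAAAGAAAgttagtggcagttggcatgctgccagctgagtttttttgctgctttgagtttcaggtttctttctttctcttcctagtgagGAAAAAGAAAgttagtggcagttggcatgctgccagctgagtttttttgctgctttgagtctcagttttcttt
IFITM3: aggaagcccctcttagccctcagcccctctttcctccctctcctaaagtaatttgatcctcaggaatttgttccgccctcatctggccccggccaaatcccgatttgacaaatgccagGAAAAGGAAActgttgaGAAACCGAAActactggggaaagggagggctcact
GBP1: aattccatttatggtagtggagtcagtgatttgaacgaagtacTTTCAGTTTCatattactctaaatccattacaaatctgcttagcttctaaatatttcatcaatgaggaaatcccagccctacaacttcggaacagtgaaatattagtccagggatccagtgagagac
IFI6 (chr1:27672193-27672362, minus strand) held 3 ISRE cores, which began 156, 115 and 93 bases before its start. IFITM1 (chr11:313870-314039, plus strand) held an ISRE core 40 bases and a GAS core 12 bases before its start. IFI44L (chr1:78620278-78620447, plus strand) held 2 copies of the same ISRE core, 164 and 73 bases before its start. IFITM3 (chr11:320861-321030, minus strand) held 2 ISRE cores, at 52 and 35 bases, and GBP1 (chr1:89065209-89065378, minus strand) held 1 on the opposite strand at 127 bases. In IFI27 a GAS core overlapped both ISRE cores. A match describes these letters only and is not a measured binding site. A window without a match, as for the GAS core in GBP1 or both cores in IFI16, may still hold a site with other letters.

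**Figure D1:**
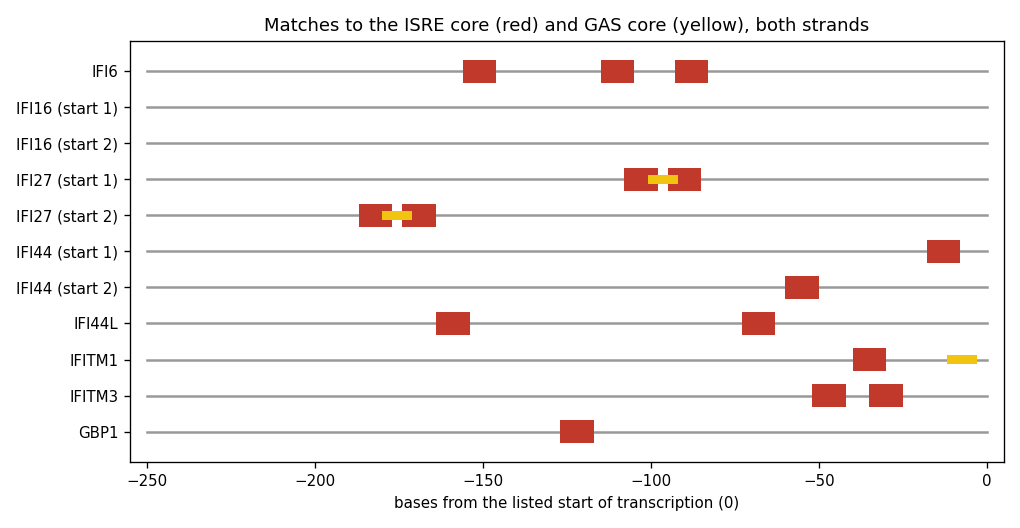
Matches to the ISRE core (tall bars) and the GAS core (short bars) in the 250 bases before each listed start, one line per start, with the distance from the start in bases on the horizontal axis. IFI6 shows 3 ISRE cores, both IFI16 lines are empty, and the IFITM1 line carries its GAS core nearest to the start.

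All expression values are on the log2 scale of quantile-normalised intensity, so a difference of 1 is a doubling. Median intensities of the arrays ran from 41.5 to 100, with untreated replicate 1 the dimmest. Each array's noise limit, set from its negative intensities as 3 times their root mean square, fell between 3.72 and 4.39 after normalisation, and 69% to 77.8% of probes exceeded it. The median SD between replicates over all probes was 0.206 in untreated cells, 0.365 with LPS and 0.373 with PBD150 plus LPS. CD14, a macrophage surface receptor, was higher with LPS than without (adjusted p = 5.46e-07, limma), at 15.75 to 15.92, near the top of the arrays' range, so that no exact difference is given. In all, 5 of 6 measured macrophage markers rose with a list median of 4.79, and 4 of 10 monocytic markers rose and 2 fell. All 10 of the latter exceeded the noise limit on all 27 arrays. The median of the macrophage markers stood 4.74 to 4.87 above untreated in the LPS replicates and 4.87 to 5.14 above it in the PBD150 plus LPS replicates. TYROBP, which enters these medians, lay at 15.74 to 15.88 with LPS, as near the top of the range as CD14. The medians are therefore rough values. Of the T or NK cell markers 2 of 9 rose, of the B cell markers 1 of 4 rose and 1 fell, of the fibroblast or epithelial markers 2 of 6 rose, and the 1 measured erythroid marker did not pass. Beside all these marker counts, 2061 of all 15207 genes rose with LPS and 2343 fell. Most measured markers of other cells exceeded the noise limit on all 9 untreated arrays. Among them were NKG7 of cytotoxic lymphocytes at 13.85, CD3D at 11.17, CD79A at 9.71 and COL1A1 at 8.38. Others lay near or under that limit, as CD3E at 3.89, PAX5 at 3.65, CD5 at 2.69, CDH1 at 2.84 and COL3A1 at 1.84. The lymphocyte adhesion receptor CD2 was 2.92 higher with LPS (adjusted p = 0.000115). The part of these shifts in the members' changes was not tested. The arrays measure a whole RNA extract, in which more cells that express a gene and more RNA per cell cannot be told apart.

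LPS raised IFI6, IFITM1, IFI44L, GBP2 and GBP5 and lowered none of the 10 genes. These 5 of 10 genes passed a Benjamini-Hochberg adjusted p of 0.05 over all 30968 probes in limma, where 10.6% of probes passed as higher and 11.8% as lower. Counted by brightest probe, as the members are, 2061 of all 15207 genes passed as higher and 2343 as lower. The same 5 genes were higher in every LPS replicate than in every untreated replicate, a separation shown upward by 23.4% of all probes, and IFI16 was lower in every one (20% of all probes). The median difference over the 10 genes was 1.19, against 0.05 over the brightest probes of all 15207 genes. With a pseudocount of 16 the median of the 10 was 0.57. A filter on dim probes dropped IFI27, IFI44 and IFITM3. It kept GBP2 through its treated arrays, with 1 of 9 untreated and 9 of 9 LPS arrays above the noise limit. The median of the genes it kept was 2.14, which is a selected set and no check on the 1.19. A gene with 2 probes is represented by its brighter one, and the other is given beside it where they differed in call or direction.

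IFI6 lay at 7.71, 7.88 and 7.71 in untreated replicates 1, 2 and 3 and at 10.71, 12.09 and 12.28 with LPS. All LPS values were far above all untreated ones, with LPS replicate 1 the lowest of its group. The mean rose from 7.77 ± 0.10 to 11.70 ± 0.86 (SD, n = 3), a difference of 3.93 (SE 0.38, adjusted p = 0.000213, limma), which is 15.2-fold. Its other probe rose by 2.30 (SE 0.26, adjusted p = 0.000452), also with the lowest LPS value in replicate 1. The difference between the probes was not tested, and the stretch of the gene that each reads was not used here.

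IFI44L, the neighbour of IFI44 on chromosome 1, moved by less. It measured 6.50, 6.32 and 6.55 untreated and 7.12, 7.34 and 7.30 with LPS, so the groups did not overlap. The difference was 0.80 (SE 0.23, adjusted p = 0.0359, 1.74-fold). That call was lost without any 1 of untreated replicates 1, 2 and 3, LPS replicates 2 and 3 or PBD150 plus LPS replicate 1 (adjusted p = 0.0511 to 0.125), and with median centring (0.72, adjusted p = 0.0792). IFI44 lay at 0.71, 3.06 and 1.57 untreated and at 3.99, 3.24 and 2.84 with LPS. Only 1 of 9 untreated arrays and 4 of 9 LPS arrays exceeded the noise limit, and the difference of 1.58 (SE 0.57) had an adjusted p of 0.0844. Without untreated replicate 2 it was 2.22 with an adjusted p of 0.0137, and on the intensities as deposited, without quantile normalisation, it was 1.77 with an adjusted p of 0.0491.

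IFI16, the DNA sensor, was the only member above the noise limit on all arrays that did not rise. Its untreated values of 10.07, 10.17 and 9.97 stood above the LPS values of 9.83, 9.79 and 9.39. The groups did not overlap, but the difference of -0.40 (SE 0.29) had an adjusted p of 0.378. IFI27 gave 1.88, 2.09 and 2.68 untreated and 2.52, 2.21 and 1.52 with LPS, with 0 of 9 and 2 of 9 arrays above the noise limit, so its level was not detectable in most of these arrays. Its difference was -0.13 (SE 0.60, adjusted p = 0.906), and the sign turned to 0.18 on the intensities as deposited.

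The neighbouring genes IFITM1 and IFITM3 on chromosome 11 differed in what could be measured. IFITM1 lay at 9.31, 9.32 and 9.43 untreated and at 11.64, 12.59 and 12.91 with LPS. It rose 8.13-fold, a log2 difference of 3.02 (SE 0.35, adjusted p = 0.000518), from 9.36 ± 0.07 to 12.38 ± 0.66 (SD, n = 3). As for IFI6, the lowest LPS value was that of replicate 1. IFITM3 gave 2.75, 2.58 and 3.80 untreated and 2.56, 4.13 and 3.60 with LPS, and exceeded the noise limit on 2 of 9 and 4 of 9 arrays. The groups overlapped and the difference was 0.39 (SE 0.54, adjusted p = 0.659). IFITM genes are similar in sequence, probe sequences were not used here, and how far each probe reads a paralog is unknown. The same limit holds for the guanylate-binding proteins.

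Among the guanylate-binding proteins GBP2 and GBP5 rose and GBP1 did not pass. GBP2 gave 2.68, 2.20 and 2.87 untreated, above the noise limit on 1 of 9 arrays, and 8.04, 6.42 and 5.94 with LPS, above it on all 9. The fitted difference was 4.22 (SE 0.59, adjusted p = 0.00127). With the untreated arrays raised to their noise limit, GBP2 was at least 6.69-fold higher with LPS. LPS replicate 1, lowest for IFI6 and IFITM1, was the highest for GBP2.

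GBP5 lay at 4.64, 4.54 and 4.69 untreated and at 7.84, 6.29 and 6.16 with LPS. It rose by 2.14 (SE 0.46, adjusted p = 0.0106), 4.39-fold, and again the highest value was that of LPS replicate 1. Untreated GBP5 lay close to the noise limit, above it on 8 of 9 arrays. With the untreated arrays raised to that limit GBP5 was at least 4.24-fold higher with LPS. Its other probe gave 4.01, 4.19 and 3.41 untreated and 7.12, 4.57 and 4.49 with LPS. That probe separated the groups but did not pass (1.52, SE 0.95, adjusted p = 0.301), and without LPS replicate 1 its difference was 0.66. GBP1 stayed near the noise limit, at 3.45, 3.73 and 4.31 untreated and 4.35, 4.22 and 4.04 with LPS. Its difference was 0.38 (SE 0.25, adjusted p = 0.326). The other GBP1 probe exceeded the limit on no untreated array and on 3 of 9 LPS arrays. It averaged 2.19 ± 1.41 (SD, n = 3) with LPS, 0.65 above untreated (adjusted p = 0.538).

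**Figure D2:**
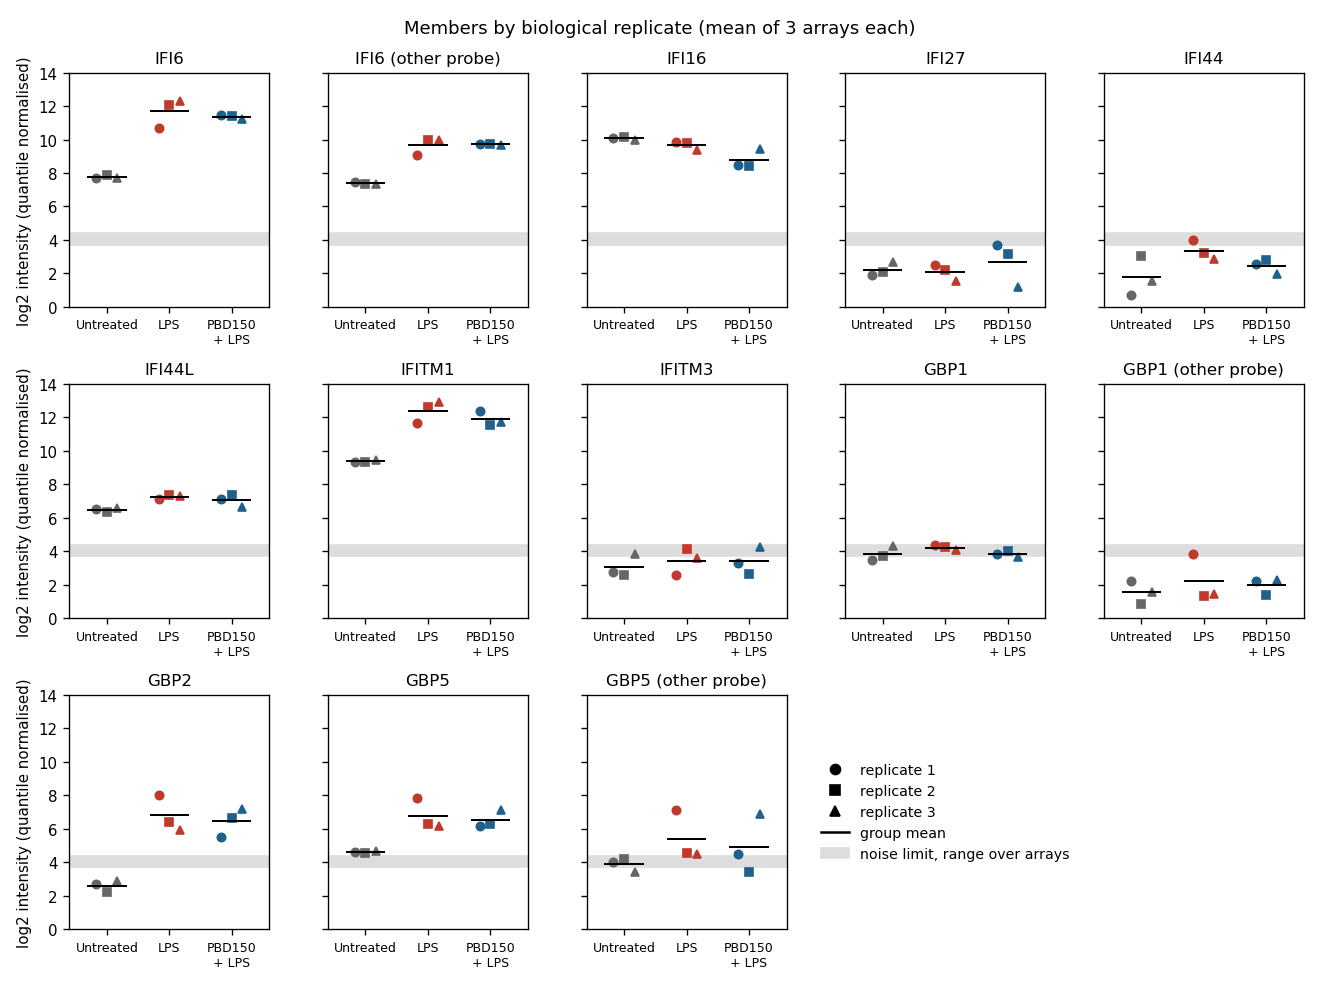
Log2 quantile-normalised intensity (vertical axis) of all 13 member probes in the 3 biological replicates of each group, each point the mean of 3 arrays, with the group mean as a line and the range of the arrays' noise limits as a grey band. Both IFI6 probes, IFITM1, GBP2 and the brighter GBP5 probe stand above their untreated values in both treated groups, the other GBP5 probe overlaps with PBD150 plus LPS, IFI16 is lowest with PBD150 plus LPS, and IFI27, IFI44, IFITM3 and GBP1 lie in or below the band.

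Pretreatment with PBD150 was compared with LPS alone to ask whether glutaminyl cyclase inhibition altered the response of these genes. None of the 10 genes passed in either direction, and neither did any of the 30968 probes (0%) in limma. A fit of all 27 arrays with a random block per biological replicate called 1 probe higher and 13 lower, none of them a member's brightest probe. Before adjustment 2.04% of all probes had a p under 0.05 and a positive difference and 3.06% a negative one, and among the members IFI16 alone did, on the negative side. The fitted difference was below 0 for 9 of the 10 genes, against 7727 of all 15207 genes and 47% of all probes. Their median was -0.35, and -0.01 over all genes. These 9 values share the same LPS replicates and are not independent of each other. Among them IFI44, IFITM3 and GBP1 lay near or under the noise limit. The differences of GBP2, GBP5, IFI44L and IFITM3 turned sign when certain single replicates were left out. The other IFI6 probe stood at 0.02.

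IFI16 lay at 9.83, 9.79 and 9.39 with LPS and at 8.47, 8.40 and 9.41 with PBD150 plus LPS. Replicates 1 and 2 of the pretreated group were low, and replicate 3 fell among the LPS values, so the groups overlapped. The difference was -0.91 (SE 0.29, 95% interval -1.57 to -0.25), with an unadjusted p of 0.0128 and an adjusted p of 0.884.

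IFITM1 lay at 12.39, 11.54 and 11.72 after PBD150 plus LPS, against 11.64, 12.59 and 12.91 with LPS. The groups overlapped, and the difference of -0.50 (SE 0.35, adjusted p = 0.906) had an interval of -1.30 to 0.30. IFI6 gave 11.47, 11.40 and 11.22 after PBD150 plus LPS, all within the range of the LPS values, 10.71 to 12.28. Its difference was -0.33 (SE 0.38, interval -1.19 to 0.52), and the other IFI6 probe stood at 0.02 (interval -0.57 to 0.62). Without LPS replicate 1 the differences of IFITM1 and IFI6 were -0.87 and -0.83, neither passing. IFI44L gave 7.14, 7.38 and 6.61, of which replicate 3 alone was below the LPS range, and its difference was -0.21 (interval -0.72 to 0.31).

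GBP2 gave 5.53, 6.63 and 7.18 after PBD150 plus LPS, overlapping the LPS range of 5.94 to 8.04. Its difference of -0.36 (SE 0.59, interval -1.69 to 0.98) became 0.26 without LPS replicate 1 and 0.10 without PBD150 plus LPS replicate 1. GBP5 gave 6.15, 6.27 and 7.15, overlapping 6.16 to 7.84, with a difference of -0.23 (interval -1.27 to 0.81) that became 0.31 without LPS replicate 1. The sign of both differences thus turned on single replicates. The intervals leave room for changes of about the size of the IFI44L response to LPS in either direction for GBP2 and GBP5.

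The dim members gave no firmer comparison. IFI44 at 2.56, 2.77 and 1.97 and GBP1 at 3.80, 3.98 and 3.67 lay below all their LPS values, a separation shown downward by 4.29% of all probes. Their differences were -0.93 (SE 0.57) for IFI44 and -0.38 (SE 0.25) for GBP1, each with an adjusted p of 0.906. Both genes exceeded the noise limit on only 2 of 9 arrays of that group. IFITM3 at 3.27, 2.65 and 4.23 differed by -0.05, and IFI27 at 3.67, 3.14 and 1.18 by 0.58, with 4 and 1 of 9 arrays above the limit.

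Within the treated groups the genes did not order the replicates alike. Counted from the untreated mean, LPS replicate 1 had the smallest rise of its group in IFI6 (2.95) and IFITM1 (2.28) and the largest in GBP2 (5.46) and GBP5 (3.21). In LPS replicate 3 the same genes stood at 4.51, 3.56, 3.36 and 1.53. After PBD150 plus LPS, replicate 3 had the largest rise of its group in GBP2 (4.59) and GBP5 (2.53), the smallest in IFI6 (3.45) and IFI44L (0.16), and an IFI16 value of -0.65, the nearest to untreated. IFITM1 did not follow IFI6 there, its smallest rise being that of replicate 2 (2.19, against 2.36 in replicate 3). The dim IFI44 did not follow IFI6 with LPS, its largest rise being that of replicate 1 (2.21). This order was read from the values after they were seen and is a description of 6 replicates without a test.

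**Figure D3:**
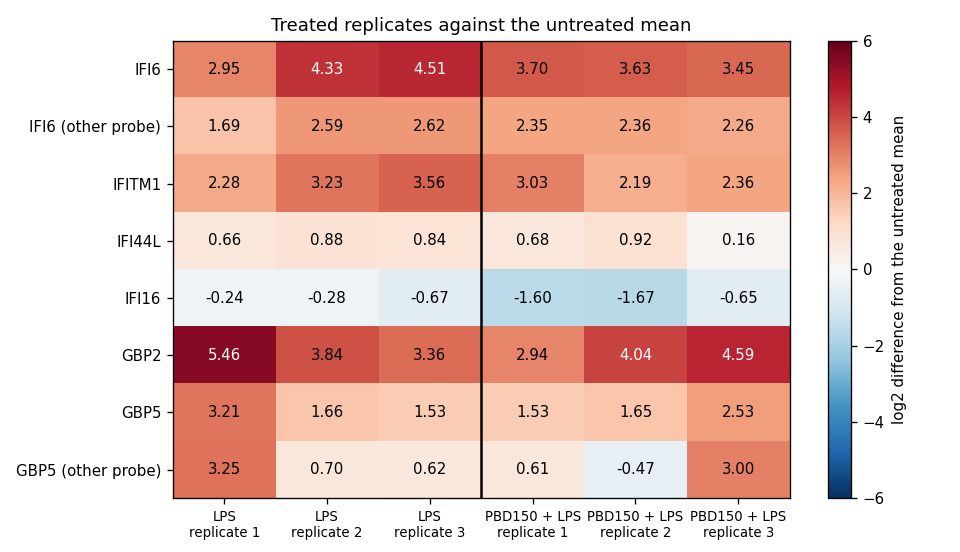
Log2 difference of each treated replicate from the mean of the untreated replicates (colour and printed value), with member probes in rows and the 3 LPS and 3 PBD150 plus LPS replicates in columns. The GBP2 row is highest in LPS replicate 1 (5.46) and PBD150 plus LPS replicate 3 (4.59), whereas the IFI6 row is lowest in LPS replicate 1 (2.95).

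Set against untreated cells, PBD150 plus LPS left IFI6, IFITM1, GBP2 and GBP5 raised and IFI16 lowered. This comparison shares its untreated arrays with the comparison of LPS alone and its treated arrays with that of the inhibitor, so it is no separate evidence for either. In limma 4 of the 10 genes passed as higher, where 12.6% of all probes did, and 1 as lower, where 13.5% did. Counted by brightest probe, 2326 of all 15207 genes passed as higher and 2721 as lower. The 5 genes IFI6, IFITM1, IFI44L, GBP2 and GBP5 were higher in every replicate (24% of all probes) and IFI16 was lower in every one (21.3%). The median over the 10 genes was 0.62, against 0.06 over all genes, and it was 1.04 without PBD150 plus LPS replicate 3. Over the genes kept by the filter on dim probes, which GBP2 passed only through its treated arrays, it was 1.90.

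IFI6 was 3.59 higher than untreated (SE 0.38, adjusted p = 0.000257, 12.1-fold), at 11.36 ± 0.13 (SD, n = 3). IFITM1 was 2.53 higher (SE 0.35, adjusted p = 0.00109, 5.77-fold), at 11.88 ± 0.44 (SD, n = 3). For IFITM1 and the brighter IFI6 probe the means rose in the order untreated, PBD150 plus LPS, LPS, and no difference between the latter groups passed. The other IFI6 probe was 2.32 higher than untreated (adjusted p = 0.000365, 5.01-fold), and its mean of 9.71 stood just above the LPS mean of 9.68.

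GBP2 was 3.86 higher (SE 0.59, adjusted p = 0.00172), at least 5.22-fold with the untreated arrays raised to their noise limit. GBP5 was 1.90 higher (SE 0.46, adjusted p = 0.0158, 3.74-fold), a call lost without untreated replicate 2 (1.86, adjusted p = 0.0515). With the untreated arrays raised to their noise limit GBP5 was at least 3.6-fold higher. Its other probe, at 4.48, 3.40 and 6.87, overlapped the untreated values and did not pass (1.05, SE 0.95, adjusted p = 0.46), and its difference was 0.07 without PBD150 plus LPS replicate 3. IFI44L was 0.59 higher (SE 0.23) with an adjusted p of 0.0911. Without PBD150 plus LPS replicate 3, its low value, that difference was 0.80 with an adjusted p of 0.015. IFI27, at 0.45 (adjusted p = 0.627), reached 1.19 (adjusted p = 0.0494) without the same replicate. It exceeded the noise limit on 0 of 9 untreated and 1 of 9 PBD150 plus LPS arrays, so neither value is a measured rise. IFI44 at 0.65, IFITM3 at 0.34 and GBP1 at -0.01 did not pass.

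IFI16 fell by 1.31 (SE 0.29, adjusted p = 0.011), from 10.07 ± 0.10 to 8.76 ± 0.57 (SD, n = 3), to 0.403 of its untreated intensity. Leaving out 1 replicate at a time gave differences from -1.64 to -1.13 with adjusted p from 0.0013 to 0.0439. The technical arrays of IFI16 spread more than those of the other bright members. Its 3 arrays per replicate spanned 0.14 to 1.75, with a median of 1.33, against medians of 0.27 for IFITM1 and 0.21 for IFI6. The part of that spread in the difference was not tested.

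**Figure D4:**
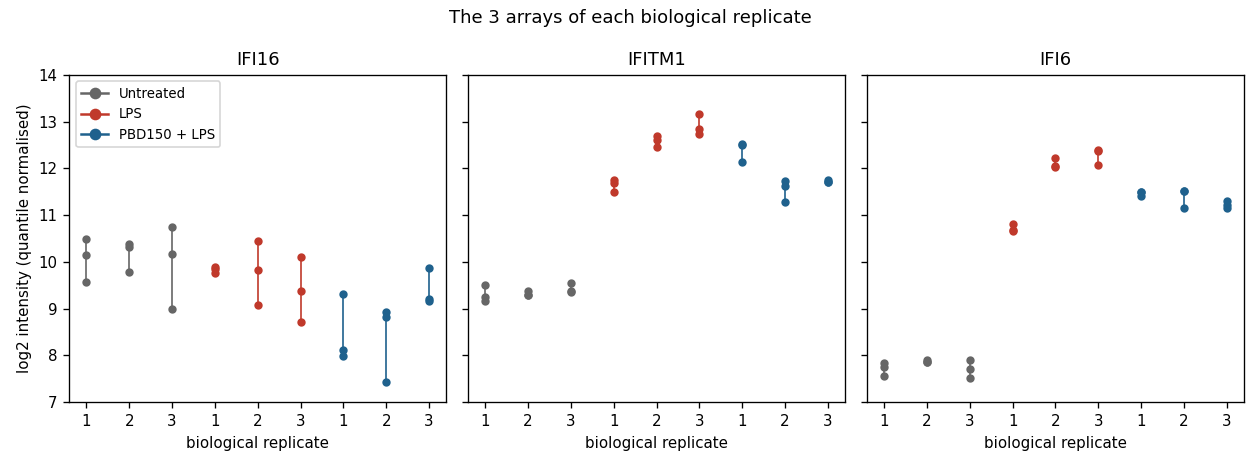
Log2 quantile-normalised intensity (vertical axis) on each of the 27 arrays for IFI16, IFITM1 and IFI6, with the 3 technical arrays of a biological replicate joined by a line and groups in colour. IFI16 arrays of a replicate span up to 1.75, IFITM1 arrays up to 0.45 and IFI6 arrays up to 0.40.

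**Figure D5:**
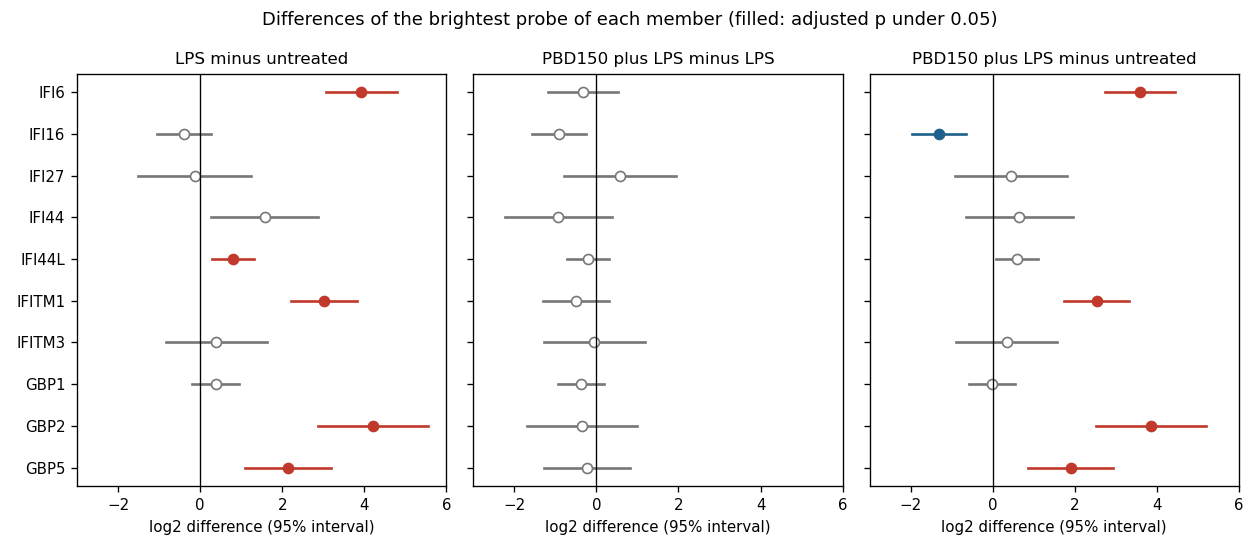
Log2 differences (horizontal axis) of the brightest probe of each member in the 3 comparisons, with 95% intervals from limma, filled where the adjusted p was under 0.05. Of the points 5 are filled for LPS against untreated, none for PBD150 plus LPS against LPS, and 5 for PBD150 plus LPS against untreated, IFI16 being the one below 0.

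Family members outside the 10 genes also divided. Of 14 listed relatives 9 were measured, and with LPS 3 of them rose and 1 fell, with a median difference of 0.53, where 2061 of all 15207 genes rose and 2343 fell. AIM2, a cytosolic DNA sensor next to IFI16 on chromosome 1, rose by 2.41 (adjusted p = 0.000188), while IFI16 did not. MNDA, a myeloid nuclear member of the same run of genes, stood at -0.65 with LPS (adjusted p = 0.055) and fell by 1.25 with PBD150 plus LPS (adjusted p = 0.0027). PYHIN1, another of them, fell by 2.26 with LPS (adjusted p = 0.00197), and 8 untreated arrays and 1 LPS array exceeded the noise limit. With the LPS arrays raised to that limit it was at least 1.55-fold lower. IFI27L2, next to IFI27 on chromosome 14, rose by 1.70 (adjusted p = 0.00151), and IFI27L1 stood at 0.57 (adjusted p = 0.122).

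The guanylate-binding genes form a single run on chromosome 1, in the order GBP3, GBP1, GBP2, GBP7, GBP4, GBP5 and GBP6. GBP6 passed as higher with LPS (adjusted p = 0.0229), with 4 of 9 untreated and 8 of 9 LPS arrays above the noise limit. With the untreated arrays raised to that limit it was at least 1.51-fold higher. It stood 0.38 above untreated after PBD150 plus LPS (adjusted p = 0.44), with 6 of 9 arrays above that limit. Its difference between the treated groups, -0.92, had an adjusted p of 0.906. GBP3, GBP4 and GBP7 stood at 0.21, 0.53 and 0.31 with LPS and did not pass. GBP3 and GBP7 lay near the noise limit, at means of 3.94 and 4.01 untreated and 4.15 and 4.32 with LPS. A change in these genes may therefore be undetectable rather than absent. Thus 3 of the 7 genes of the run passed as higher with LPS, where 2061 of all 15207 genes did, GBP2 lying apart from GBP5 and GBP6 with GBP7 and GBP4 between them. Over the 9 relatives none passed between the treated groups, where the median was -0.25. With PBD150 plus LPS against untreated 2 rose and 2 fell, where 2326 of all 15207 genes rose and 2721 fell. IFITM2, IFITM5, IFITM10, IFI30 and IFI35 had no probe named here.

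Wider lists of the interferon response were counted in the same fit. Of 31 measured type I interferon-stimulated genes 13 rose with LPS and 1, EPSTI1, fell, where 2061 of all 15207 genes rose and 2343 fell. The median was 0.83, against 0.05 over all genes. ISG15, a ubiquitin-like modifier, rose by 4.46 (adjusted p = 2.51e-05), ISG20, an exonuclease, by 4.52 (adjusted p = 6.91e-05), IFIT1, which binds viral RNA, by 3.60 (adjusted p = 3e-05), and SAMD9L, an antiviral factor, by 3.56 (adjusted p = 3.8e-05). With PBD150 plus LPS against untreated 12 rose and 2, EPSTI1 and MX2, fell, where 2326 of all 15207 genes rose and 2721 fell. With PBD150 plus LPS against LPS none passed, and 27 of 31 stood below 0, against 7727 of all 15207 genes. The median was -0.44, against -0.01 over all genes. These 31 values share the same LPS replicates and are not independent of each other. IFIT1 had the smallest p of the list there, at -1.31 (unadjusted p = 0.000299, adjusted p = 0.414). The median of the list stood 0.74, 1.14 and 1.28 above untreated in LPS replicates 1, 2 and 3, lowest in replicate 1, and 0.58, 0.50 and 0.76 above it with PBD150 plus LPS.

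Of 16 measured interferon-gamma-induced genes 4 rose with LPS and none fell, with a median of 0.11. Over all 15207 genes 2061 rose and 2343 fell. The 4 that rose were the chemokine CXCL10 (2.64), the factor IRF1 (1.31), the tryptophan-degrading enzyme IDO1 (1.51) and CD274. CD274 exceeded the noise limit on 0 of 9 untreated and 4 of 9 LPS arrays, too few to give a fold. Between the treated groups none passed, and the median was -0.02.

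Of 26 measured interferons, receptors and signalling genes 7 rose with LPS and none fell, with a median of 0.62. Over all 15207 genes 2061 rose and 2343 fell. IRF7, the factor that amplifies interferon production, rose by 3.81 (adjusted p = 2.94e-05), and IRF9, the DNA-binding subunit of the ISRE complex, by 3.15 (adjusted p = 9.95e-05). The receptor subunits IL10RB and IFNAR1 rose by 1.62 and 1.01. Interferon-beta itself, IFNB1, stood at 0.66 (adjusted p = 0.232) and IFNG at -0.71 (adjusted p = 0.306) after 48 h. IFNB1 lay near the noise limit, at means of 4.03 untreated and 4.69 with LPS. A change in it may therefore be undetectable rather than absent. Between the treated groups none passed, and the median was 0.01. IFNL1 passed with LPS although it exceeded the noise limit on no array.

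The genes whose replicate values ran closest to each member were sought among 9262 other genes at or above the median brightness, by the root mean square difference of the 9 replicate values, each gene centred on its untreated mean. IFITM1 was closest to OAS1 (0.27), an interferon-induced activator of RNase L, followed by HSD3B7 and PTAFR (0.33 each). IFI6 was closest to CD300C (0.28), ECM1 (0.32) and ICAM1 (0.33). GBP5 was closest to HECA (0.21), ABAT (0.23) and CMAHP (0.27), and GBP2 to GPR34 (0.41), AQP9 (0.47) and H2BC5 (0.48). IFI16 was closest to TRAM2 (0.21), EFNA3 (0.21) and C7orf25 (0.22), and IFI44L to SNAP47 (0.11), MED8 (0.12) and AK1 (0.13). These distances describe 9 replicates in 3 groups and carry no test. The measure favours genes of like size of change, and the small distances of IFI44L go with its small difference.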

How the data were processed

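Total RNA was amplified, labelled with Cy5 and hybridised to single-colour arrays, per the labels' protocols. The authors deposited 1 intensity per probe and array. These are on a linear scale, as their range shows, and reach below 0. No source used here gives the scanner software, the background method or any further normalisation. No array column was left unused (0). For the log2 scale the deposited intensities were floored at 1, transformed and quantile-normalised over 27 arrays, and the 3 technical arrays of a replicate were averaged.

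A model of 3 group means over 9 biological replicates was fitted with limma 3.58.1 in R 4.3.3, with Benjamini-Hochberg adjustment over 30968 probes at 0.05, two-sided. The script was checked on simulated data. The platform table named 1 gene for 17397 probes and none for 13571, and current symbols came from RefSeq. Every member probe was described, and other lists were represented by genes from the 4 with the smallest p per comparison and by the 3 genes nearest each member. EPSTI1, MX2, IFNL1, IFNB1, IFNG, CD3D, CD3E, CD5, CD79A, PAX5, CDH1, COL1A1 and COL3A1 were singled out after their values were seen. Members and lists were chosen with earlier results of these data known. The number of arrays limits precision. Other normalisations, a pseudocount of 16, a filter on dim probes, array weights, a replicate block, a random block over 27 arrays, fits of only the 2 groups compared and leaving out each replicate were tried.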

Additional observations from a re-analysis of the deposited data

How the results depend on the processing

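Over 18 other settings the member probes gave 230 values per comparison. With LPS against untreated 214 kept direction and side of the threshold, 9 lost the call, all IFI44L, 2 gained it and 5 turned sign. With PBD150 plus LPS against LPS 210 kept both and 20 turned sign. With PBD150 plus LPS against untreated 217 kept both, 1 lost the call, 6 gained it and 6 turned sign. Every reversed value had no call, and the cause was not tested. IFI6, IFITM1 and GBP2 kept their calls against untreated in all 18 settings in both comparisons. For GBP2 the setting that filtered dim probes is no check, as GBP2 passed that filter only through its treated arrays. GBP5 kept its call with LPS, and IFI16 kept its fall with PBD150 plus LPS against untreated.

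On the intensities as deposited the median difference of all probes was 0.41 with LPS, and 5935 probes were higher and 2205 lower, against 3292 and 3664 after quantile normalisation. There IFI27 stood at 0.18 with LPS, the other IFI6 probe at -0.18 between the treated groups and GBP1 at 0.19 with PBD150 plus LPS against untreated. Between the treated groups median centring gave 0.01 for IFITM3 and -0.02 for the other IFI6 probe, which scaling to a common median also put at -0.02. A pseudocount of 16 gave 0.12 for IFI27 with LPS and 0.06 for IFITM3 between the treated groups. Array weights gave 5458 higher and 5552 lower probes with LPS and 6373 higher probes with PBD150 plus LPS against untreated, and put the other GBP1 probe at 0.23, the other IFI6 probe at -0.16 (both between the treated groups) and GBP1 at 0.01 against untreated. Fitting all 27 arrays with a random block per biological replicate called 1 probe higher and 13 lower between the treated groups, and no member's brightest probe was among them. The labels do not say whether replicate numbers pair the samples. Correlations of values centred within each group ran from -0.219 to 0.036 for same-numbered samples of different groups. For differently numbered samples they ran from -0.072 to 0.189. With 3 replicates per group these correlations cannot exclude a shared day or batch. With a replicate block, IFI44L with LPS stayed at 0.80 with an adjusted p of 0.0814.

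Leaving out 1 replicate at a time gave 2256 to 3724 probes higher and 2415 to 4160 lower with LPS. With LPS it gave -0.35 to 0.15 for IFI27 and -0.16 to 1.09 for the other GBP1 probe. Between the treated groups it gave -0.55 to 0.31 for GBP5, -1.45 to 0.39 for its other probe, -0.79 to 0.26 for GBP2, -0.68 to 0.57 for the other GBP1 probe, -0.48 to 0.32 for IFITM3, -0.28 to 0.18 for the other IFI6 probe and -0.38 to 0.01 for IFI44L. With PBD150 plus LPS against untreated it gave -0.05 to 1.19 for IFI27, -0.20 to 0.23 for GBP1, -0.08 to 0.72 for IFITM3, and 3 to 6 members called higher, fewest without untreated replicate 2 and most without PBD150 plus LPS replicate 3. The median over the members moved from 1.19 to 0.57 with a pseudocount of 16 for LPS. For PBD150 plus LPS against untreated it moved from 0.62 to 1.04 without PBD150 plus LPS replicate 3. Without dim probes the 2 medians were 2.14 and 1.90, over only the members that the filter kept, GBP2 through its treated arrays. The filter on dim probes kept 22669 probes and gave no value for IFI27, IFI44, IFITM3 or the other GBP1 probe. For these, signal near the noise limit leaves changes undetectable rather than absent.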
